A study of Mus musculus with 69 samples.

Results

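The comparison described here set nucleus accumbens RNA of male mice exposed to early life stress (ELS) that were labelled Dot1l knockdown against that of ELS mice labelled GFP. Its members were 16 of the 69 samples of the series, 8 in each group, taken from the condition and genotype labels, and all 14016 genes that passed a filter on low counts were compared. Both groups share the stress exposure, the sex and the tissue, so neither is a standard-reared control. GFP, green fluorescent protein, is the label of the control group. The labels name neither a vector nor the cells that received one, and RNA came from whole tissue, so cells with and without a knockdown would be measured together. The sources used here do not give the ages of the mice, the stress procedure or whether each library is a separate animal. P-values then measure the spread between these libraries, which may be partly technical.

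DOT1L is the methyltransferase of lysine 79 in the globular domain of histone H3, and its dimethylated product H3K79me2 lies over the 5′ ends and bodies of transcribed genes. DOT1L is brought to chromatin by the AF9, ENL and AF10 proteins (Mllt3, Mllt1 and Mllt10). AF9 and ENL are also found in the super elongation complex of RNA polymerase II. In the nucleus accumbens, most neurons are medium spiny neurons, which express either the D1 or the D2 dopamine receptor and respond to reward and stress. The series asks how ELS acts on H3K79 methylation in D2-type medium spiny neurons and on transcription downstream of it, and this comparison concerns transcription in stressed mice in which Dot1l was targeted.

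The libraries labelled knockdown held 0.462 to 8.80 M counts (M for mega) with a median of 6.44 M, and the ELS GFP libraries 1.76 to 11.1 M with a median of 6.47 M. The shallowest library of each group stood apart in many of the values below. These were knockdown replicate 7 with 0.462 M counts and ELS GFP replicate 2 with 1.76 M counts. The 10 most abundant features took 38.2 to 57.2% of the counts in the libraries labelled knockdown and 43.2 to 59.5% in ELS GFP. No pair of libraries had identical counts, and Spearman correlations between libraries over the tested genes ran from 0.761 to 0.953 within the knockdown group, 0.787 to 0.947 within ELS GFP and 0.734 to 0.955 between them. Some genes that brain tissue is known to express had no counts at all. Of the 57 list genes that were in the count table but not tested, 24 had 0 counts in all 32 RNA libraries of the series, among them Gfap of astrocytes, P2ry12 of microglia and B2m of antigen presentation.

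Dot1l, the targeted gene, was not lower in the libraries labelled knockdown. Its level was 28.9 CPM (counts per 1 M counts of the library, after TMM scaling) at the lowest, 38.4 CPM at the median and 74.9 CPM at the highest in those libraries, and 15.4, 35.0 and 54.2 CPM in ELS GFP. The groups overlapped over most of their range, and 5 of the 8 libraries labelled knockdown lay above the ELS GFP median. The edgeR quasi-likelihood log2 fold change was 0.28 ± 0.27 (SE, n = 8 and 8, adjusted p = 0.985). The median shift, which is the median of all differences in log2 CPM between a knockdown and a GFP library (Hodges-Lehmann), was 0.15, with p = 0.442 in an exact two-sided permutation rank-sum test. The fold change was lowest without knockdown replicate 6, at 0.12, and highest without ELS GFP replicate 4, at 0.39. Dot1l RNA in whole tissue thus did not bear out the label, and every direction given below is that of libraries labelled knockdown. Standard GFP libraries, for orientation, had a Dot1l median of 36.3 CPM.

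The Dot1l start carries a dense run of CpG dinucleotides and a strong H3K79me2 peak, so its sequence is shown with those of 3 genes that led the higher side by rank. Capitals mark CpG dinucleotides in the 250 bases before to 50 after the RefSeq start on GRCm38.p6. Birc2 and Nfkbib have an ELS promoter peak, and Nhp2 has none. For Birc2 the farther upstream of 2 listed starts is shown.
Dot1l, chr10:80754953-80755252, plus strand: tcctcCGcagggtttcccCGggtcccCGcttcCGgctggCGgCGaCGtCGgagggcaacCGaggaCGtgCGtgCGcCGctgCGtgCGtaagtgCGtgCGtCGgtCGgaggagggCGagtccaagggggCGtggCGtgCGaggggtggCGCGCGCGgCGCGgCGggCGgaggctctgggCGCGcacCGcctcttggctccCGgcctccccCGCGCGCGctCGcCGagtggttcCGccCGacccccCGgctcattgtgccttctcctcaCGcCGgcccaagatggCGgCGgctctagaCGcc
Birc2, chr9:7837008-7837307, minus strand: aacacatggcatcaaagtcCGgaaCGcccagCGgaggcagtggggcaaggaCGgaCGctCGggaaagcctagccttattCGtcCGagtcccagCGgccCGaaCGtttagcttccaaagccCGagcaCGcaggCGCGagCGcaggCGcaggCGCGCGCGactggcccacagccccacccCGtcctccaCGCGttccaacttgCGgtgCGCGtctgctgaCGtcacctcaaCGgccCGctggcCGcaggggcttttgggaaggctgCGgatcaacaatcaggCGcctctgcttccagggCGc
Nfkbib, chr7:28766595-28766894, minus strand: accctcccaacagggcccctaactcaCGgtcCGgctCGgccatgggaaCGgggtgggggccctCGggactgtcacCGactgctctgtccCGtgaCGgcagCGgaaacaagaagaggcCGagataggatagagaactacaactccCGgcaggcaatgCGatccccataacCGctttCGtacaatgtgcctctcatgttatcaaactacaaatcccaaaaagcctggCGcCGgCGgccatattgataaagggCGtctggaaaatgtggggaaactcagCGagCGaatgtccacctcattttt
Nhp2, chr11:51619523-51619822, plus strand: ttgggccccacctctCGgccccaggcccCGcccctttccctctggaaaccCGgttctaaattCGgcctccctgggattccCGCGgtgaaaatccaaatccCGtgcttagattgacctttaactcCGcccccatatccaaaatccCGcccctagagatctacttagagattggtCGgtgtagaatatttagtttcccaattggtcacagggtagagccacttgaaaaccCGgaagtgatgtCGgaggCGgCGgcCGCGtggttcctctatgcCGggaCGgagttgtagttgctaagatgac
The windows hold 49 CpG for Dot1l, 34 for Birc2, 20 for Nfkbib and 18 for Nhp2, against a median of 7 over the 32851 promoters of the RefSeq table. In the same order, 99.0, 92.3, 73.5 and 70.3% of those promoters have fewer CpG. The other Birc2 start has 21 CpG. The authors' ELS peak list, on mm10, places peaks beside 3 of these starts. The peak of Dot1l at chr10:80755296-80757401 has a fold enrichment of 3.08 in the authors' deposited list. That of Birc2 at chr9:7833199-7835921 has 2.48, and that of Nfkbib at chr7:28767012-28769597 has 2.73. The list annotates the latter to the Nfkbib promoter, but it lies wholly upstream of the start and covers none of the gene.

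The partners of DOT1L lay close to the median of all genes. Of 24 tested genes for DOT1L partners and the super elongation complex, 11 had a median shift above 0, the median over the list was -0.01, and none reached an unadjusted rank-sum p of 0.05. With edgeR, Paf1 of the RNA polymerase II associated factor complex was lower at an unadjusted p of 0.0136 (adjusted p = 0.602), with medians of 19.5 and 25.2 CPM and 229 CPM in its highest ELS GFP library. The list median was 0.13 when library totals were used without TMM factors, a setting that moved the median of all genes from -0.013 to 0.109. Mllt10 (AF10) had medians of 60.1 CPM in the knockdown group and 64.2 CPM in ELS GFP, Mllt3 (AF9) 116 CPM in both, and Mllt1 (ENL) 16.4 and 14.9 CPM. Aff1 had medians of 54.5 and 50.0 CPM and Aff4 88.1 and 92.1 CPM, both scaffolds of the super elongation complex. Kdm2b, a demethylase reported to act on H3K79, ran from 13.1 to 29.6 CPM with a median of 24.3 CPM in the knockdown group and from 17.2 to 35.5 CPM with a median of 24.5 CPM in ELS GFP. Its log2 fold change was -0.05 ± 0.30 (SE, n = 8 and 8, edgeR adjusted p = 0.998).

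Across all genes, no gene passed an adjusted p of 0.05. With edgeR, 0 of 14016 genes (0.0%) passed and the smallest adjusted p was 0.277. With the exact rank-sum test, 0 genes (0.0%) passed and the smallest adjusted p was 1. The smallest p that 8 against 8 libraries allow is 0.000155, which the 2 genes whose groups did not overlap reached. At an unadjusted p under 0.05, edgeR called 866 genes (6.18%), 312 higher (2.23%) and 554 lower (3.95%) in the libraries labelled knockdown. The rank-sum test called 650 genes (4.64%), 270 higher (1.93%) and 380 lower (2.71%). Its share of 4.64% is no more than a threshold of 0.05 gives between groups that do not differ. DESeq2 called 2 genes at an adjusted p under 0.05, Triqk (log2 fold change -3.15, adjusted p = 0.000887) and Rrs1 (-3.06, adjusted p = 0.0188), and limma called 0. Median shifts were small, with the 10th and 90th percentiles at -0.56 and 0.41, and 48.0% of genes had a shift above 0.

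The mean-based and rank-based tests called 866 and 650 genes at an unadjusted p under 0.05 and shared 329 of them. Of the 866 genes at an edgeR p under 0.05, 329 also had a rank-sum p under 0.05, 328 of them with the same sign, and 537 did not. In 316 of the 866 genes (36.49%), 1 library held over 50% of the summed CPM of the higher group, which was so for 5.52% of all genes tested and for 27 of the 650 genes picked by rank. Most of these single libraries were the shallowest of their group. ELS GFP replicate 2 was that library for 223 of the 554 genes with lower edgeR values (40.3%), and knockdown replicate 7 for 45 of the 312 higher ones (14.4%). ELS GFP replicate 6 was it for 37 more of the lower genes. In 56 of the 866 genes the median shift lay on the other side of 0 from the fold change.

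**Figure D1:**
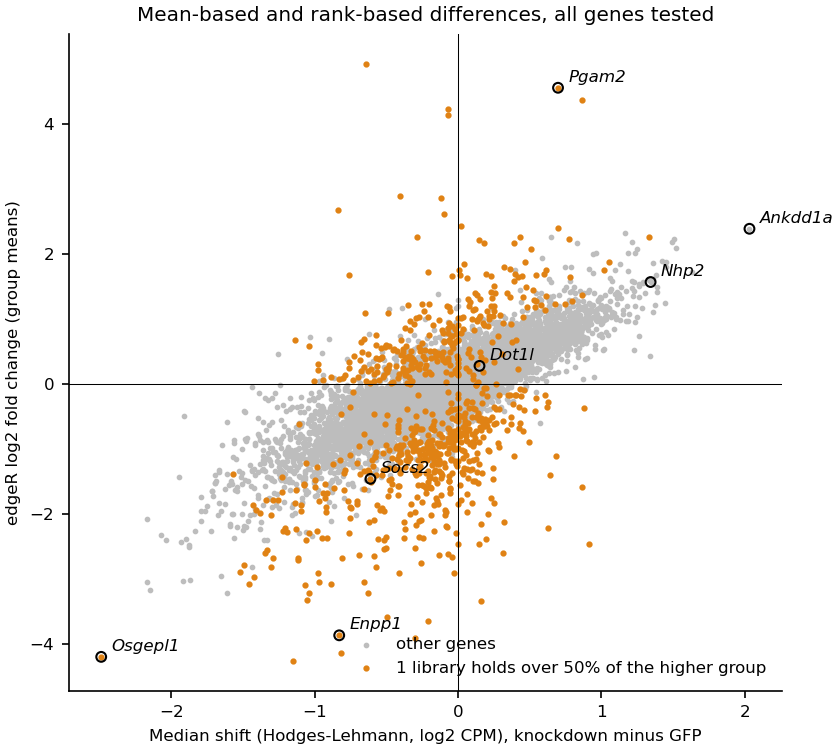
Difference between libraries labelled knockdown and ELS GFP for the 14016 genes tested, as the Hodges-Lehmann median shift in log2 CPM (x axis) and the edgeR log2 fold change of group means (y axis). Orange genes have over 50% of the higher group's CPM in 1 library and make up 5.52% of all genes and 36.49% of those at an edgeR p under 0.05, and circles mark 7 named genes.

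Among the genes with the smallest edgeR p, some differed by mean and not by rank. Pgam2, the muscle form of phosphoglycerate mutase, ran from 0.657 CPM to a median of 2.12 CPM in the knockdown group, and replicate 7 had 278 CPM, which was 93.2% of the group's sum. In ELS GFP it ran from 0.349 to 2.80 CPM. Its log2 fold change was 4.55 ± 0.98 (SE, n = 8 and 8, edgeR adjusted p = 0.277), beside a median shift of 0.70 with an exact rank-sum p of 0.328. Lipc (hepatic lipase, 479 CPM), H2afx (the histone variant H2A.X, 426 CPM), Elovl2 (a fatty acid elongase, 248 CPM) and Fam189a2 (190 CPM) also had their highest value in replicate 7. Among the lower genes, Enpp1, a pyrophosphatase, had 349 CPM in ELS GFP replicate 2 beside a group median of 4.57 CPM, and its log2 fold change was -3.86 with a rank-sum p of 0.195. Triqk had 140 CPM and Rrs1, a ribosome assembly factor, 94.3 CPM in that same library, beside group medians of 7.51 and 4.33 CPM. Both genes were also lower by rank. The median shift of Rrs1 stayed between -1.76 and -1.21 whichever library was left out, with an exact rank-sum p of at most 0.0401. That of Triqk stayed between -1.55 and -1.21, with an exact p of at most 0.0541.
Other genes of small edgeR p also had a small rank-sum p whichever library was left out. These genes were chosen by their p in the same libraries, so leaving out 1 library gives no independent support. It shows only that no single library carries the value. The same holds for leave-one-out values of other genes chosen by p. Osgepl1, which takes part in mitochondrial tRNA modification, had medians of 0 CPM in the knockdown group and 2.05 CPM in ELS GFP, with 44.6 CPM in ELS GFP replicate 2. Its median shift stayed between -2.52 and -2.25, with an exact rank-sum p of at most 0.00218. Ankdd1a had medians of 5.65 CPM in the knockdown group and 1.15 CPM in ELS GFP, with all 8 libraries labelled knockdown above the ELS GFP median. Its log2 fold change was 2.39 ± 0.60 (SE, n = 8 and 8, edgeR adjusted p = 0.335) and its median shift 2.03 (exact rank-sum p = 0.000622). Stoml3, a stomatin-like membrane protein of sensory neurons, had medians of 0.468 and 3.0 CPM, with none of the 8 libraries labelled knockdown above the ELS GFP median.

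The groups did not overlap for 2 of the 14016 genes (0.0143%). With libraries assigned at random, a share of 0.000155 of genes would not overlap. The 2 genes are thus no more than random assignment would give. Nhp2, a protein of the box H/ACA ribonucleoproteins that modify ribosomal RNA and of telomerase, was higher. It ran from 3.04 to 8.53 CPM with a median of 5.00 CPM in the knockdown group and from 0 to 2.91 CPM with a median of 2.10 CPM in ELS GFP. These are few reads, 2 to 74 per library labelled knockdown and 0 to 25 per ELS GFP library. Its median shift was 1.34 (exact rank-sum p = 0.000155, adjusted p = 1) and its log2 fold change 1.57 ± 0.52 (SE, n = 8 and 8, edgeR adjusted p = 0.427). Socs2, a suppressor of cytokine and growth hormone signalling, was lower. It ran from 3.92 to 7.81 CPM with a median of 6.04 CPM in the knockdown group, and from 8.05 CPM through a median of 9.07 CPM to 69.1 CPM in ELS GFP, the last again in replicate 2. Its median shift was -0.61 (exact rank-sum p = 0.000155, adjusted p = 1), and leaving out 1 library at a time kept it between -0.64 and -0.54.

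**Figure D2:**
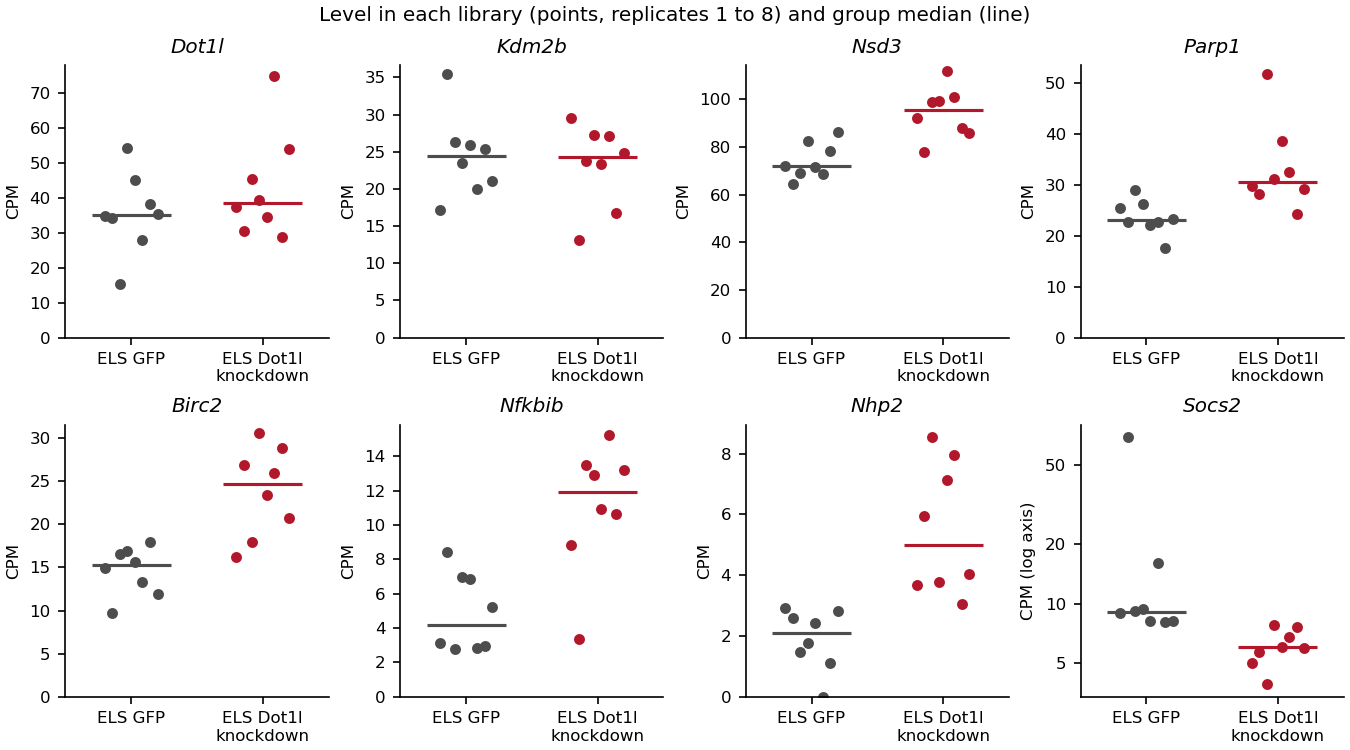
CPM in each of the 8 ELS GFP (grey) and 8 ELS Dot1l knockdown (red) libraries, with the group median as a line, for Dot1l, Kdm2b and 6 genes named by rank; the axis of Socs2 is logarithmic. Dot1l and Kdm2b overlap, while Nhp2 and Socs2 do not overlap between the groups. These 2 are 0.0143% of the genes tested, no more than random assignment of libraries would give.

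Other genes led the higher side by rank without passing an adjusted test. Birc2, the ubiquitin ligase cIAP1 of tumour necrosis factor signalling, ran from 16.2 to 30.6 CPM with a median of 24.7 CPM in the knockdown group and from 9.69 to 17.9 CPM with a median of 15.3 CPM in ELS GFP. Only the upper ELS GFP libraries reached into the knockdown range, and its log2 fold change was 0.69 ± 0.21 (SE, n = 8 and 8, edgeR adjusted p = 0.335; exact rank-sum p = 0.00109). Nfkbib, which encodes the inhibitor IκB-beta, ran from 3.39 to 15.2 CPM with a median of 11.9 CPM against 2.76 to 8.40 CPM with a median of 4.17 CPM, and 7 of 8 libraries labelled knockdown lay above the ELS GFP median. Its log2 fold change was 1.20 ± 0.38 (SE, n = 8 and 8, edgeR adjusted p = 0.359). Parp1, the poly(ADP-ribose) polymerase of the DNA damage response, had medians of 30.5 and 23.0 CPM, and all 8 libraries labelled knockdown lay above the ELS GFP median. Nsd3, a methyltransferase of lysine 36 in histone H3, ran from 77.9 to 112 CPM with a median of 95.5 CPM against 64.6 to 86.4 CPM with a median of 72.0 CPM. Its log2 fold change was 0.35 ± 0.18 (SE, n = 8 and 8, edgeR adjusted p = 0.843; exact rank-sum p = 0.00186). Ints11, the cutting subunit of the Integrator complex, had medians of 8.81 and 4.36 CPM. Neat1, the long noncoding RNA of paraspeckles, had medians of 40.3 and 29.9 CPM. Snx13, a sorting nexin of endosomes, had 48.2 and 37.2 CPM, and Fam219b 5.12 and 2.49 CPM. For all 10 genes chosen by rank on this side, the adjusted rank-sum p was 1.

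The lower side by rank was led, after Socs2, by Rtn4ip1 and Bdh1. Rtn4ip1, a mitochondrial oxidoreductase, had medians of 4.39 CPM in the knockdown group and 6.31 CPM in ELS GFP. Bdh1, the mitochondrial dehydrogenase of the ketone body 3-hydroxybutyrate, ran from 4.58 to 13.9 CPM with a median of 11.8 CPM against 12.5 to 177 CPM with a median of 16.3 CPM, where the next highest ELS GFP library after replicate 2 had 34.4 CPM. Tomm7, a subunit of the outer membrane import channel, had medians of 2.77 and 6.12 CPM. None of the 8 libraries labelled knockdown lay above the ELS GFP median for any of these 3 genes. Nutf2, which carries Ran into the nucleus, had medians of 2.63 and 6.40 CPM. Eya1, a transcriptional coactivator and phosphatase, had 9.55 and 13.9 CPM, and Tom1l1, an adaptor of endosomal sorting, 8.80 and 14.6 CPM. Ccdc171 had 10.2 and 18.1 CPM, Adamts12, a secreted metalloprotease, 1.80 and 5.78 CPM, and Stac, an adaptor of calcium channels, 2.86 and 7.35 CPM. Minar2 entered by its promoter peak, with 2.85 and 6.97 CPM. The 52 nuclear-encoded respiratory chain genes tested had 23 above 0, a list median of -0.04 and 2 lower at an unadjusted rank-sum p under 0.05 (Ndufb5 with medians of 5.08 and 8.02 CPM, Ndufa11 with 4.44 and 6.16 CPM).

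Of 36 gene lists, 13 had a median shift above 0 and 20 below, and 20 lay between -0.1 and 0.1. The lists counted 14 memberships higher and 16 lower at an unadjusted rank-sum p under 0.05, and 23 lists had none. Of 751 memberships tested these are 1.86% and 2.13%, no more than the 1.93% and 2.71% of all genes. The share of genes with a shift above 0 was 48.0% over all genes tested, which is the value to read the counts below against.

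Markers of microglia, the immune cells of the brain, and interferon-stimulated genes had the highest list medians, with no member at an unadjusted rank-sum p under 0.05. All 13 microglia markers tested had a shift above 0, with a list median of 0.49. Ctss, a lysosomal protease, ran from 107 to 1329 CPM with a median of 472 CPM in the knockdown group and from 57.7 to 636 CPM with a median of 246 CPM in ELS GFP (exact rank-sum p = 0.234). The spread within each group was wide. Summed microglia markers ran from 647 to 3247 CPM in the knockdown group and from 778 to 1951 CPM in ELS GFP, and 4 libraries labelled knockdown (replicates 1, 4, 6 and 8) had the highest sums of the 16. Replicates 2, 3, 5 and 7 had 647, 1030, 924 and 1205 CPM. By the median deviation of the list, 4 of the 8 libraries labelled knockdown lay above the ELS GFP median. Markers of 1 cell type can vary together between libraries, so the 13 shifts are not independent. The defining markers Csf1r and Tmem119 were above 0 in all 16 libraries, while Tyrobp and Trem2 were at 0 in at least 1 ELS GFP library and P2ry12 in all libraries. In bulk tissue, more or fewer cells of a type and more or less RNA per cell cannot be told apart. Of 25 interferon-stimulated genes tested, 24 had a shift above 0, with a list median of 0.41. Ifih1, a sensor of viral RNA, had medians of 46.5 and 31.2 CPM (exact rank-sum p = 0.065). Stat2, a transcription factor of interferon signalling, had 78.3 and 53.5 CPM (p = 0.105 in the same exact test). Bst2, a membrane tether of viruses, had 13.8 and 7.86 CPM. Leaving out 1 library at a time kept the microglia median between 0.30 and 0.60 and the interferon median between 0.24 and 0.52, lowest without ELS GFP replicate 6 and knockdown replicate 8 respectively. No microglia marker and no interferon-stimulated gene of these lists had an ELS promoter peak. The part of microglial content in the interferon values was not tested.

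**Figure D3:**
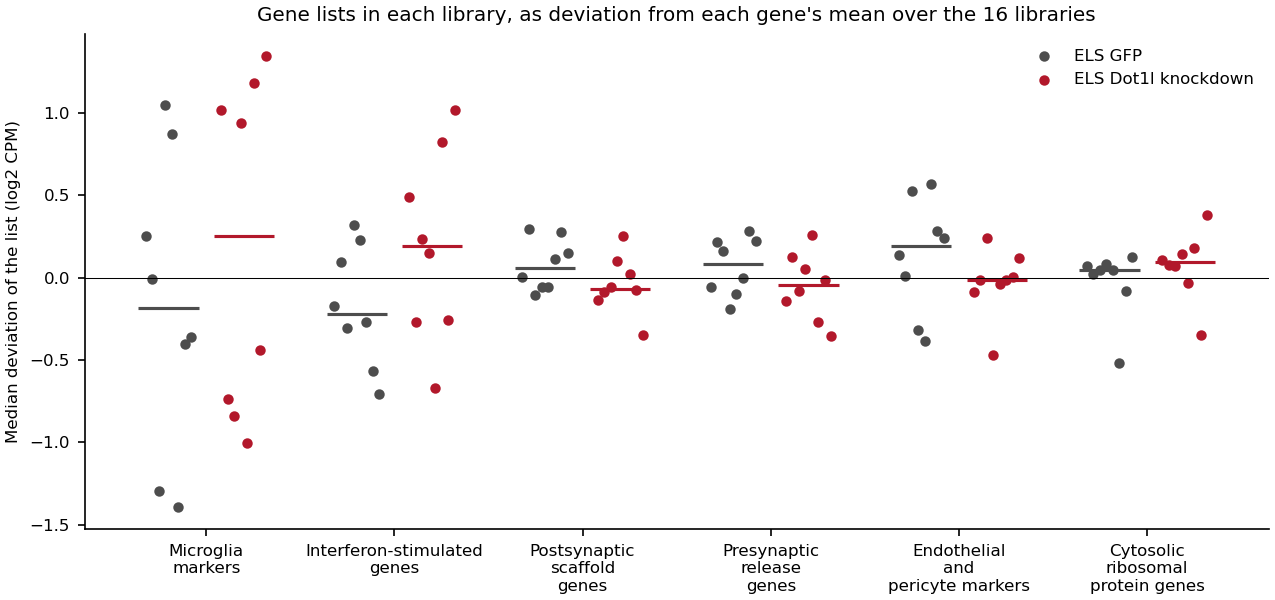
Median deviation of 6 gene lists in each library (points, log2 CPM from each gene's mean over the 16 libraries), with ELS GFP in grey, ELS Dot1l knockdown in red and the group median as a line. Microglia markers run from -1.003 to 1.342 among libraries labelled knockdown and from -1.391 to 1.046 in ELS GFP, and the groups overlap.

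Of 4 lists of synaptic genes, those of postsynaptic scaffolds and presynaptic release had lower medians than all genes by over 0.1. Of 24 postsynaptic scaffold genes tested, 20 had a shift below 0, the list median was -0.12, and 3 were lower at an unadjusted rank-sum p under 0.05. Dlg4 (PSD-95) ran from 122 to 196 CPM with a median of 161 CPM in the knockdown group and from 139 to 298 CPM with a median of 188 CPM in ELS GFP (exact rank-sum p = 0.0281). Dlg3 (SAP102) had medians of 38.3 and 45.1 CPM (p = 0.00699 in the exact test), with ELS GFP replicate 2 at 269 CPM. Shank1 had medians of 324 and 400 CPM. Leaving out 1 library at a time took Dlg4 and Shank1 to an exact p of up to 0.0541, and Dlg3 to no more than 0.014. Of 23 presynaptic release genes, 18 had a shift below 0, with a list median of -0.12. The vesicle protein Vamp2 had medians of 107 and 134 CPM, with an exact rank-sum p of 0.0379. Syp, the vesicle protein synaptophysin, lay the other way at 51.5 and 41.7 CPM. Without TMM factors the medians of these 2 lists were -0.008 and -0.005, below the 0.109 that all genes then had, and without knockdown replicate 8 they were -0.07 and -0.06. Of 45 axon guidance genes, 31 had a shift below 0, with a list median of -0.12 that was -0.05 without ELS GFP replicate 6 and 0.003 without TMM factors, but Sema3c (26.8 and 18.4 CPM) and Efnb3 (11.98 and 9.14 CPM) were higher at an unadjusted rank-sum p of 0.0281. Ephb2, an ephrin receptor, was lower at 13.4 and 23.2 CPM (exact rank-sum p = 0.0499). Glutamate receptor genes (10 of 24 above 0, list median -0.04), GABA genes (10 of 20, 0.01) and potassium channel genes (17 of 35, -0.00) lay near the middle. Within the GABA list, the astrocyte GABA transporter Slc6a11 was lower, with medians of 33.2 and 46.6 CPM (exact rank-sum p = 0.0104).

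Other lists had medians below 0 without a member past the unadjusted threshold. The lowest of these were striatal interneuron markers (8 of 10 below 0, list median -0.37), neuropeptides and stress peptide receptors (9 of 12, -0.31), endothelial and pericyte markers (11 of 15, -0.29) and endocannabinoid genes (8 of 9, -0.25). The endothelial genes Flt1, a receptor of vascular growth factor, and Pecam1 had medians of 44.1 and 63.5 CPM and of 11.4 and 15.7 CPM, with none of the 8 libraries labelled knockdown above the ELS GFP median. The other 4 of the 15 lay above 0, among them Cspg4 (7.10 and 5.46 CPM) and Cldn5 (1.065 and 0.749 CPM). For both of these, 7 of the 8 libraries labelled knockdown lay above the ELS GFP median. Summed endothelial and pericyte markers ran from 123 to 206 CPM in the knockdown group and from 137 to 258 CPM in ELS GFP. The list median was -0.04 without ELS GFP replicate 3 and -0.15 without knockdown replicate 7. The interneuron median was -0.22 and the neuropeptide median -0.20 without knockdown replicate 6. Abhd6 and Daglb, enzymes that break down and make the endocannabinoid 2-arachidonoylglycerol, had medians of 16.1 and 23.6 CPM and of 15.3 and 19.5 CPM. The cannabinoid receptor Cnr1 had 26.3 and 27.4 CPM. Of 8 oligodendrocyte precursor markers, 6 lay below 0, with a list median of -0.26 that was -0.06 without knockdown replicate 8, and Neu4, a sialidase, had medians of 0.231 and 2.30 CPM (exact rank-sum p = 0.00653), whereas the defining marker Pdgfra had 15.8 and 10.8 CPM.

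**Figure D4:**
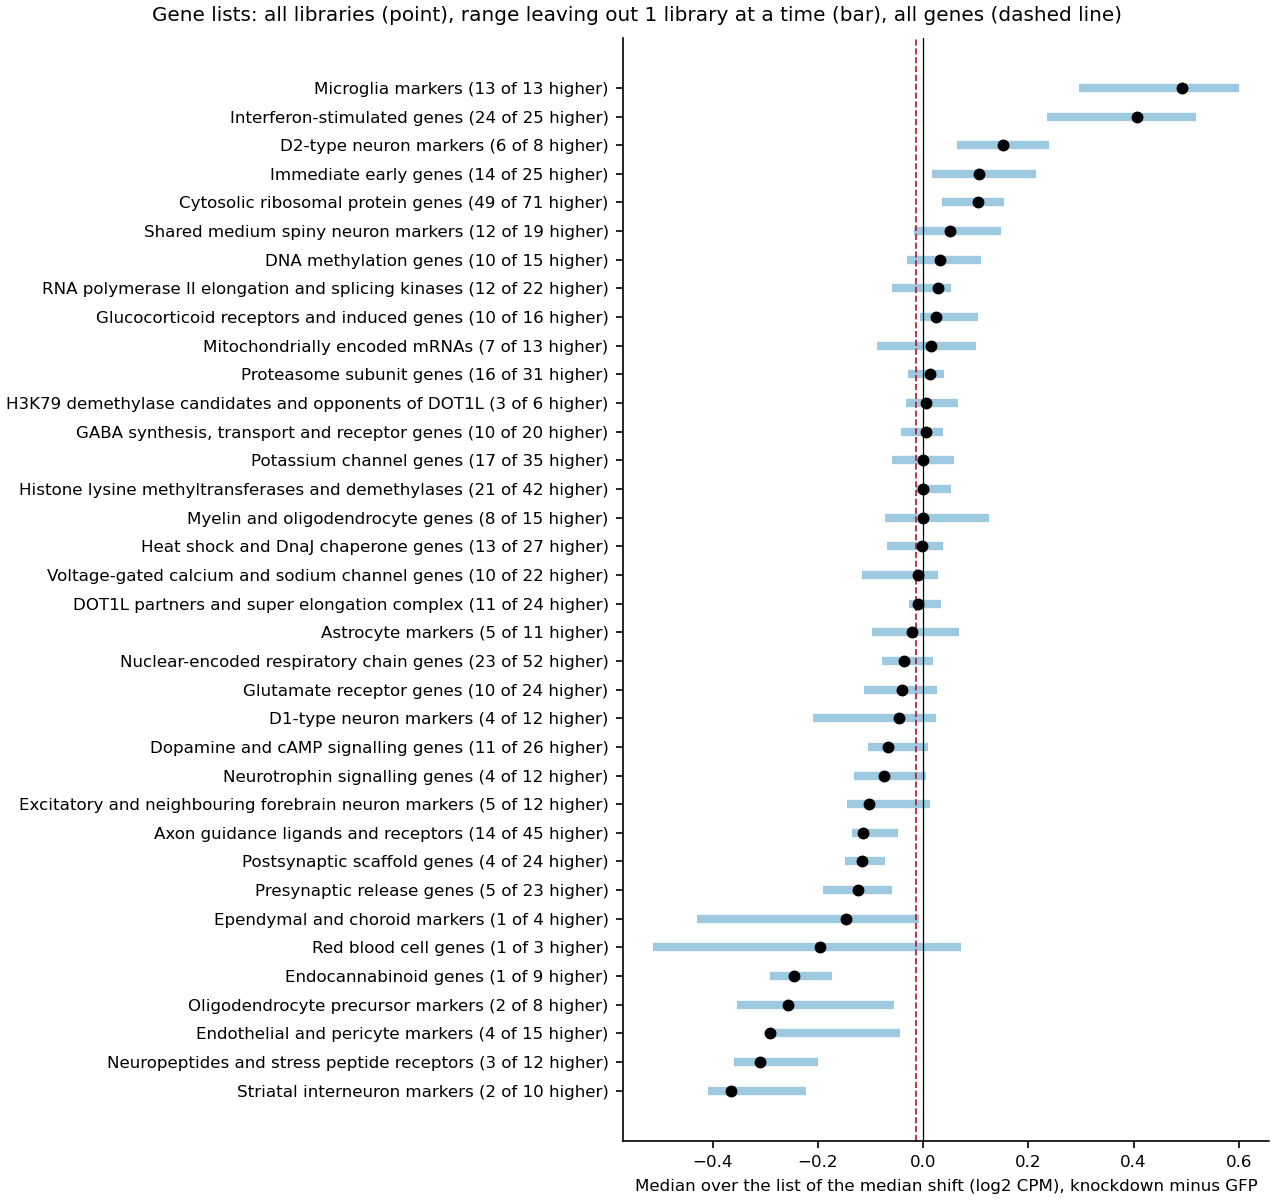
Median over each of 36 gene lists of the median shift in log2 CPM between libraries labelled knockdown and ELS GFP (black points), with the range when 1 library at a time was left out (blue bars) and the median of all genes, -0.013 (dashed line). Microglia markers (0.49) and interferon-stimulated genes (0.41) lie highest and striatal interneuron markers (-0.37) lowest.

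Markers of medium spiny neurons, the cells that the series is about, had list medians on both sides of 0. Shared markers had 12 of 19 genes above 0 with a list median of 0.05, which was -0.02 without knockdown replicate 6 and 0.15 without knockdown replicate 7. D2-type markers had 6 of 8 above 0 with a list median of 0.15, which ran from 0.06 without ELS GFP replicate 7 to 0.24 without knockdown replicate 7. D1-type markers had 4 of 12 above 0 with a list median of -0.05, which ran from -0.21 without knockdown replicate 6 to 0.02 without knockdown replicate 7. Pde10a, a phosphodiesterase of medium spiny neurons, had medians of 373 CPM in the knockdown group and 331 CPM in ELS GFP. Drd2, the D2 dopamine receptor, ran from 35.0 to 208 CPM with a median of 71.9 CPM, against 29.9 to 630 CPM with a median of 58.9 CPM. Its highest value was again in ELS GFP replicate 2, so its log2 fold change was -0.59 while its median shift was 0.26 (exact rank-sum p = 0.505). Penk, the enkephalin precursor of D2-type neurons, had medians of 59.1 and 53.4 CPM, and Adora2a, their adenosine receptor, 5.36 and 5.71 CPM. Drd1 had medians of 3.14 and 4.24 CPM, and 1 library labelled knockdown, replicate 6, at 42.6 CPM held 65.1% of the group's CPM, beside a log2 fold change of 1.19. Tac1 and Pdyn, peptide precursors of D1-type neurons, had 2.92 and 3.21 CPM and 2.98 and 5.81 CPM. Ppp1r1b (DARPP-32), a regulator of dopamine signalling, had 10.9 and 11.7 CPM. Sp9, a transcription factor of D2-type neurons, was the 1 gene of the D2 list past the unadjusted threshold, at 7.80 and 12.01 CPM (exact rank-sum p = 0.0207). The D1 list also had 1 of its 12 genes past that threshold, likewise lower.

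Activity and stress genes were likewise mixed. Of 25 immediate early genes tested, 14 had a shift above 0 with a list median of 0.11 (0.02 without knockdown replicate 4 and 0.21 without knockdown replicate 7), and none passed an unadjusted rank-sum p of 0.05. The median deviation of the list per library lay the other way, with a group median of -0.107 for knockdown and 0.058 for ELS GFP. Only 2 of the 8 libraries labelled knockdown lay above the ELS GFP median. Fosb ran from 3.85 to 51.7 CPM with a median of 12.8 CPM in the knockdown group and from 0.366 to 17.9 CPM with a median of 7.65 CPM in ELS GFP. Its highest library was knockdown replicate 8, and its log2 fold change was 1.17 ± 0.57 (SE, n = 8 and 8, edgeR adjusted p = 0.804; exact rank-sum p = 0.161). Arc, which acts at the synapse, lay the other way, with medians of 22.0 and 35.2 CPM and 1 of 8 libraries labelled knockdown above the ELS GFP median (exact rank-sum p = 0.065). Fos had medians of 14.5 and 13.5 CPM and Egr1 49.2 and 54.6 CPM. Glucocorticoid receptors and induced genes had 10 of 16 members above 0 and a list median of 0.02. Nr3c1, the glucocorticoid receptor, had medians of 56.5 and 53.4 CPM, and Fkbp5, its induced chaperone, 14.4 and 15.3 CPM. Bdnf, a neurotrophin, had 5.81 and 5.70 CPM. Crh, the stress peptide, was below the filter, with 24 counts over the knockdown group and 17 over ELS GFP.

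Among chromatin genes, 42 histone lysine methyltransferases and demethylases had 21 members above 0 and a list median of 0.00, and 3 were higher at an unadjusted rank-sum p under 0.05. Besides Nsd3, these were Kdm5a, a demethylase of H3K4, with medians of 49.5 and 32.04 CPM (exact rank-sum p = 0.0281), and Kmt2c, a methyltransferase of H3K4 at enhancers, with 138 and 125 CPM (p = 0.0379 in the exact test). With edgeR, 0 of the 42 genes were higher and 2 were lower at an unadjusted p under 0.05. By rank, 1.93% of all genes were higher and 2.71% lower at an unadjusted p under 0.05. Cytosolic ribosomal protein genes had 49 of 71 members above 0 and a list median of 0.10, with 5 higher and 2 lower at that threshold, and the median was 0.04 without ELS GFP replicate 6. Rpl7 (47.7 and 35.3 CPM) was among the higher and Rpl9 (6.96 and 11.04 CPM) was among the lower. Ribosomal protein genes have many near-identical copies, and the sources used here do not say how the counting split their reads.

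Genes were then divided by whether the authors' ELS list placed an H3K79me2 peak at their promoter, which was so for 6680 of the 14016 genes tested. Genes with a promoter peak had a median shift of 0.011 with 52.1% above 0, and genes without one -0.052 with 44.3% above 0. The rank-sum test called 282 genes with a peak at an unadjusted p under 0.05 (4.22%), 150 higher and 132 lower, and 368 genes without one (5.02%), 120 higher and 248 lower. Genes with a peak were also expressed at higher levels, with a median of 16.2 CPM against 4.75 CPM. To compare over libraries, each library was given 1 value, the median deviation of peak genes minus that of other genes from the ELS GFP mean. This ran from -0.027 to 0.289 with a median of 0.046 in the libraries labelled knockdown, and from -0.137 to 0.128 with a median of -0.033 in ELS GFP. The groups overlapped widely, and the difference in means was 0.091 (exact two-sided permutation p = 0.0904, n = 8 and 8). Because the ELS GFP mean is made from 1 of the groups, the libraries are not exchangeable under this test, and its p is approximate. With the mean of all 16 libraries as the reference, which treats them alike and was chosen after seeing the data, the difference was 0.094 (p = 0.0785 in the same exact test). Against the ELS GFP mean it was 0.002 (p = 0.924, exact test) among genes above the median level, and 0.061 without knockdown replicate 6.

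The difference between peak classes was found among genes of low level. Genes were sorted by mean log2 CPM into 10 bins of equal size. Peak genes lay above other genes in 7 of the 10 bins, and the gap ran from -0.027 to 0.126. In the lowest bin, with a median of 1.08 CPM, the median shift was -0.264 with a peak and -0.295 without, so that low genes were lower in the libraries labelled knockdown whether or not they had a peak. In bin 3 from the bottom (3.18 CPM) the values were -0.003 and -0.129, the widest gap. In bins 5 to 10 the gap stayed between -0.027 and 0.021. Without knockdown replicate 7, the shallowest library, the gap of bin 3 was 0.089 and the values of the lowest bin were -0.246 and -0.255. The 7609 genes with any ELS peak, at the promoter or in the body, were sorted by the length their peaks cover into 4 groups. From the shortest (181 to 1402 bases) to the longest (13743 to 556776 bases), median shifts were -0.013, 0.008, 0.031 and 0.001. Genes whose promoter peak was in the ELS list but not in the Standard list numbered 289 and had a median shift of 0.010, beside 0.012 for the 6391 genes with a promoter peak in both and 0.003 for the 888 with one in the Standard list alone. The peak lists come from other samples than the RNA, and no H3K79me2 data of mice labelled knockdown were analysed here.

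**Figure D5:**
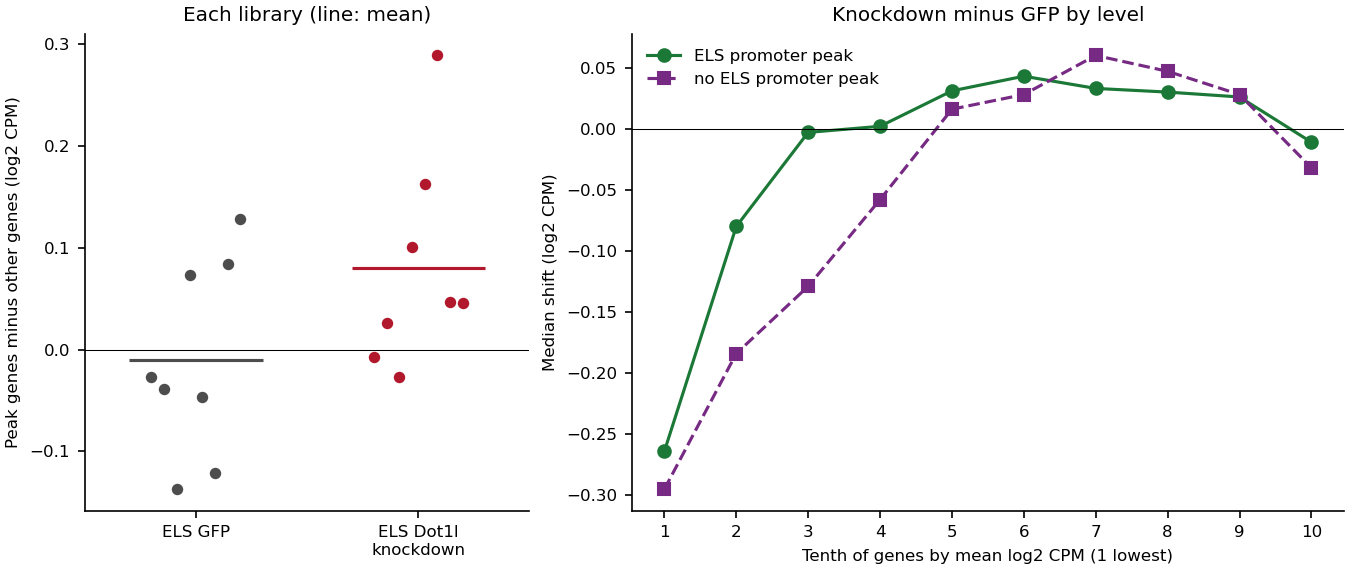
Left, for each library, the median deviation of genes with an ELS H3K79me2 promoter peak minus that of other genes in log2 CPM (line: group mean, 0.080 for the knockdown group and -0.011 for ELS GFP). Right, median shift of both gene classes in 10 bins of genes by level, where the gap reaches 0.126 in bin 3 and stays between -0.027 and 0.021 in bins 5 to 10.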

How the data were processed

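RNA of 16 nucleus accumbens libraries was compared, with groups taken from the condition and genotype labels. The authors deposited raw counts per Ensembl mouse gene. The build is mm10 per the submitters' processing notes, which list featureCounts for counting, HISAT2, DESeq2 and FastQC without versions, while the table's own name points to another counter. How overlapping genes and strand were treated is unstated, and the library kit does not mark strand, so reads of overlapping or antisense genes cannot be told apart. The authors' deposited peak lists give 1 list per rearing group, in which each peak has a q-value and a ratio, its fold enrichment, per the file headers. No source used here names the peak caller or says how libraries were pooled. All 32 columns of the count table matched an RNA library and 0 were left over. Symbols were matched for 52403 of 52636 gene IDs.

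Counts of all 32 RNA libraries entered 1 fit with a mean per group in edgeR 4.0.16 (R 4.3.3), with TMM factors, filterByExpr at a minimum count of 10, robust quasi-likelihood tests and 28 residual degrees of freedom. P-values were adjusted over the 14016 genes (Benjamini-Hochberg, threshold 0.05). The SE of a fold change is its size over the square root of F. The rank-sum test ran over all 12870 assignments of 8 of 16 libraries on log2 CPM with a prior count of 2. Peaks were joined to genes by the Ensembl IDs in the lists, and a promoter peak is one that the lists annotate to the promoter, within 3 kb of the start. Promoter sequences are those of RefSeq. DESeq2 1.42.0 and limma 3.58.1 (voom, quality weights) were alternatives, beside other scalings, filters, fits and leaving out each library. Both tests were tested on simulated data. The simulation had a smaller spread between libraries than these data, whose common coefficient of variation in edgeR was 0.566. It therefore does not tell how the tests perform at this spread. Tables and rank tests used scipy 1.17.1, numpy 2.4.6 and pandas 2.3.3 under Python 3.11.15, and figures matplotlib 3.10.9.

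The members, the 36 gene lists and the rule for named genes were chosen with earlier results of these data known. The rule takes a fixed set of Dot1l, striatal, activity and stress genes, 6 genes per direction by edgeR p, 10 per direction by rank-sum p with a median of at least 5 CPM in the higher group, 5 per direction by rank-sum p among genes with an ELS promoter peak, and up to 3 per list by rank-sum p. Predicted and clone-named genes were counted and not named. Other members of a list were named after their values were seen, to show defining markers. They are Csf1r, Tmem119, Tyrobp, Trem2 and Cnr1.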

Additional observations from a re-analysis of the deposited data

Results flagged for a closer look

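Single libraries stood far from the other 7 of their group in 22 of 112 groups of values examined (53 genes named outside the lists, library totals, the share of abundant features and the peak difference, in both groups). Chance flags about 1 in 20 groups, and many of the genes were chosen for large differences. The gap between the extreme library and the nearest one was compared with the range of the group on the log2 CPM scale.

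In the libraries labelled knockdown, replicate 7 had 278.1 CPM of Pgam2, 478.6 CPM of Lipc, 425.5 CPM of H2afx and 189.9 CPM of Fam189a2, and the 10 most abundant features took 38.188% of its counts. Replicate 3 had 1.038 CPM of Adora2a, the lowest of the group, and 7.033 CPM of Adamts12, the highest. Replicate 2 had the highest Nr3c1 (84.0 CPM) and the lowest Nfkbib (3.388 CPM). Replicate 4 had the highest Arc (43.93 CPM), and replicate 6 had no Bdnf (0.0 CPM).

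In ELS GFP, replicate 2 had 629.6 CPM of Drd2, 259.0 CPM of Penk, 44.56 CPM of Osgepl1, 176.9 CPM of Bdh1, 94.28 CPM of Rrs1, 348.7 CPM of Enpp1 and 69.1 CPM of Socs2, each the highest of the group. Replicate 6 had the highest Nr3c1 (84.06 CPM) and no Nhp2 (0.0 CPM). Replicate 5 had the highest Ints11 (7.632 CPM), and replicate 1 the lowest Arc (16.63 CPM). Replicate 7 of the knockdown group and replicate 2 of ELS GFP are the shallowest libraries of their groups, with 0.462 and 1.76 M counts. The part of depth in these values was not tested.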

How the results depend on the processing

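The count of 0 genes past the adjusted threshold was the same in edgeR under every alternative run and in limma. DESeq2 called 2. The rank-sum test called 0 under each of its alternatives. The count at an unadjusted edgeR p under 0.05 was 866. It was 4209 with no filter on low counts and 564 with a minimum count of 30, and it ran from 565 (without ELS GFP replicate 2) to 1043 (without ELS GFP replicate 4) when 1 library was left out. The count at an unadjusted rank-sum p under 0.05 was 650, 412 among genes with at least 5 CPM in the higher group, and 424 (without ELS GFP replicate 6) to 628 (without ELS GFP replicate 4) when 1 library was left out. Fewer libraries or genes enter the leave-one-out and stricter-filter values. The log2 fold change of Dot1l stayed between 0.12 and 0.39. The peak difference of 0.091 ran from 0.061 to 0.109 when 1 library was left out, and only without ELS GFP replicate 8, at 0.109, was its exact permutation p (0.0424) under 0.05. With deviations taken from the mean of all 16 libraries, an alternative chosen after seeing the data, it was 0.094 (p = 0.0785 in the exact permutation test). Triqk (-3.15) and Rrs1 (-3.06) passed the adjusted threshold in DESeq2 and not in edgeR. Shallow libraries limit genes of low level, and 2712 of the tested genes had 0 counts in at least 1 of the 16 libraries. No paired analysis was possible because the labels give no replicate numbers that pair libraries of these groups. With the number in the sample titles as a factor, 674 genes had an unadjusted edgeR p under 0.05 and 0 passed the adjusted threshold.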

Other observations

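Housekeeping lists not described above lay near the median of all genes. Proteasome subunit genes had 16 of 31 members above 0 with a list median of 0.01. Psmc6 was higher (medians of 23.1 and 15.0 CPM) and Psmd8 lower (8.18 and 13.2 CPM), each at an exact rank-sum p of 0.0499. Heat shock and DnaJ chaperone genes had 13 of 27 above 0 with a list median of -0.00. Hsp90b1, a chaperone of the endoplasmic reticulum, was higher (59.0 and 48.4 CPM, exact rank-sum p = 0.0148) and Dnaja1 lower (24.5 and 31.0 CPM, exact rank-sum p = 0.0499), the latter with 201 CPM in its highest ELS GFP library. Nelfe, a subunit of the negative elongation factor that holds RNA polymerase II near promoters, had medians of 7.22 and 2.98 CPM (exact rank-sum p = 0.0379). Mitochondrially encoded mRNAs had 7 of 13 members above 0 with a list median of 0.02, and it was -0.09 without knockdown replicate 7. Myelin and oligodendrocyte genes had 8 of 15 above 0 with a list median of 0.00, and Mbp, a myelin protein, had medians of 128 and 186 CPM (exact rank-sum p = 0.195). DNA methylation genes had 10 of 15 members above 0 with a list median of 0.03. None of these genes had an adjusted rank-sum p under 1.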
